A study of Mus musculus with 7 samples.

Results

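The cytoplasmic ribosomal protein genes were followed in brain RNA of mice aged 24 months, in 4 libraries labelled on and 3 labelled off. A gene was taken as a member when its symbol had the Rpl or Rps form and its annotation was protein-coding, with the Rps6k kinases left out. The pattern matched 88 symbols, of which 5 are annotated as pseudogenes (Rpl6l, Rps12l1, Rps3a2, Rps3a3 and Rps4l) and were not counted. This left 83 members of 48526 genes in the table, 51 of the large subunit and 32 of the small subunit. All 7 libraries carry the labels V1S/SV2 (the constructs), DT and Venus, a fluorescent protein. On libraries are also labelled Glucose, and off libraries Dox (doxycycline). Each state of the constructs thus comes with its own agent, and the parts of agent and constructs cannot be told apart. The sources used here do not give the brain region, the sex of the mice, the meaning of DT or the promoter that drives the constructs. Nothing in the labels ties a library to its own mouse, so each p-value reflects the spread among these libraries, which may be technical. Expression is given as the regularized logarithm (rlog), a log2 scale on which a gene's differences are shrunk, most of all at low counts. The depth of the libraries is unknown.

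The ribosome is the machine that reads messenger RNA and joins amino acids, and each of its subunits is built from ribosomal RNA and a set of small, mostly basic proteins. The small subunit holds the messenger RNA and its decoding site, and the large subunit holds the peptidyl transferase centre, the exit tunnel for the new chain and the stalk that recruits translation factors. Ribosomal protein genes are among the most highly transcribed genes of every cell, and neurons also keep ribosomes in dendrites for local protein synthesis. In vertebrates their messenger RNAs begin with a run of C and T (C and U in RNA), the terminal oligopyrimidine motif, through which the kinase mTOR and the protein Larp1 control their translation.

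Sequences around the annotated start are shown for 6 members among those with a promoter entry. They are the 4 called lower with the most negative differences and the 2 with the most positive. They show the bases around the start in genes that were called lower and in genes that were not. Each runs 5′ to 3′ on the gene's strand, with 30 bases before the start and 20 from it, in RefSeq annotation on GRCm38.p6, and capitals mark its longest run of C and T. Rps16, Rps28, Rpl41 and Rpl22l1 were called lower in on, and Rps24 and Rpl35a had small positive differences.
Rps16, chr7:28350659-28350708, plus strand: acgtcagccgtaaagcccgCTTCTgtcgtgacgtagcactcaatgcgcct
Rps28, chr17:33824543-33824592, minus strand: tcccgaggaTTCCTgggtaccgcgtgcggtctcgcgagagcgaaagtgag
Rpl41, chr10:128549149-128549198, minus strand: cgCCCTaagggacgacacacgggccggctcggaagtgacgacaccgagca
Rpl22l1, chr3:28805478-28805527, plus strand: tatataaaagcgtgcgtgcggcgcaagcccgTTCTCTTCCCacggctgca
Rps24, chr14:24490648-24490697, plus strand: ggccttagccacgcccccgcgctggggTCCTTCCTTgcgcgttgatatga
Rpl35a, chr16:33056423-33056472, plus strand: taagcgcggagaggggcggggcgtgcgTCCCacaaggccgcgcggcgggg

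A promoter entry existed for 63 of the 83 members, 61 of them tested. In 52 of the 63 the start was also the outermost start in the RefSeq gene table, and in the others it lay elsewhere. A run of 8 or more C or T on the gene's strand lay within these 50 bases in 29 of the 61 tested members (47.5%), against 19.6% of 12805 tested genes with an entry and 20% of all 27025 entries. Over 300 bases, from 250 before the start to 50 after it, the Ets-type motif CCGGAAG on either strand was held by 39.3% of the tested members, 15.4% of tested genes and 9.1% of all entries. The motif AAGATGGC of the factor Yy1 was held by 8.2%, 4.1% and 2.9% of these groups, and GGGCGG, the GC box, by 60.7%, 60.7% and 35.9%. TATAAA on the gene's strand was held by 9.8%, 4.8% and 8.9%. Between on and off, the median difference was -0.112 in the 29 members with the run of C or T and -0.120 in the 32 without it. Of the 9 members called lower that had an entry, 4 held the run. Matches in these windows describe letters, not bound sites.

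Before the results, 1 library needs to be named. The first principal component of all tested genes held 47.7% of the variance. Its score was -4.10 for on replicate 1, 7.19 to 9.15 for on replicates 2 to 4, and -8.64 to -3.56 for the off libraries. On replicate 1 therefore lay among the off libraries on this axis, and counts of calls are given with and without it. It was picked from these same values for lying near the off libraries. Larger differences and counts without it follow from that choice and are no independent support. Snap25, a synaptic vesicle fusion protein, averaged 16.38 ± 0.07 in on (SD, n = 4) and 16.44 ± 0.09 in off (SD, n = 3), and Mbp, the myelin basic protein, averaged 17.08 ± 0.12 in on (SD, n = 4) and 17.13 ± 0.09 in off (SD, n = 3), so defining genes of neurons and oligodendrocytes were abundant, as the label brain says.

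Ribosomal protein messages were abundant in these brains. Of the 83 members, 81 had a mean rlog of 3 or more and were tested with 17896 genes in all, 49 of the large subunit and 32 of the small subunit, and 79 had a mean of 5 or more. Levels between genes were compared per length, as the mean rlog less log2 of the annotated transcript length in kilobases. On this scale the 47 large subunit genes with a mean of 5 or more had a median of 12.14, and the 32 small subunit genes a median of 12.37, against 7.84 over all tested genes with a length. In all, 66 members lay at or above the 95th percentile of tested genes. The highest level per length was that of Rplp1, a protein of the stalk, at 14.02, followed by Rps29 at 13.85, Rps15 at 13.60, Rpl9 at 13.40 and Rpl4 at 13.39. The lowest were Rps20 at 9.71, Rps27l at 9.24, Rpl13a at 8.92, Rpl24 at 4.08 and Rpl3l at 3.25. The value of Rps20 rests on an annotated transcript of 3706 bases, far longer than those of the other members.

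Some low values belong to paralogues known from other tissues, and some to genes that share their exons with another annotated gene. Rpl10l, known from testis, was listed at 0 in all 7 libraries. Rpl39l, also known from testis, lay at 0.93 to 0.98 in on and 0.93 to 1.01 in off and was not tested. Rpl3l, the muscle form of Rpl3, lay at 3.69 to 3.73 in on and 3.69 to 3.72 in off. Rpl24 lay at 3.46 to 3.56 in on and 3.48 to 3.55 in off. Other genes on the same strand in GENCODE M21, with Gm28037 the largest overlap, cover 71.5% of the Rpl24 transcript, so the level of Rpl24 is uncertain. The same holds for Rpl13a, covered to 59.3% with Gm45713 the largest overlap, and Rps10, covered to 91.6% with RPS10-NUDT3 the largest overlap.

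The on and off libraries were compared to see how ribosomal protein messages stood with the constructs on. In on, 12 members were lower and none was higher at an adjusted p under 0.05 (limma, Benjamini-Hochberg over all tested genes), and 69 did not pass. Over all tested genes, 1.79% were called lower and 0.816% higher. Of the large subunit 8 of 49 were called lower, and of the small subunit 4 of 32. The differences were small, from -0.33 ± 0.07 (SE) in Rplp1, which is 79.5% of the off level on the rlog scale, to 0.09 ± 0.04 (SE) in Rps24, and 33 of the 81 members lay between -0.1 and 0.1.

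Below the threshold most members also leaned lower in on. The difference was negative in 75 of 81 members, against 48.5% of all tested genes. The median difference was -0.114 over all 81, -0.103 over the large subunit and -0.137 over the small subunit, against 0.003 over all tested genes. At an unadjusted p under 0.05 in limma, 44 members were lower and none higher, against 10.6% and 10.0% of all tested genes. All on libraries lay below all off libraries in 23 members, and in none did they lie above, against 8.09% and 7.13% of all tested genes. At an adjusted p under 0.1, 23 members were lower, against 4.06% of all tested genes. The members share their libraries and vary together, so these counts do not stand for independent genes. In bulk RNA, fewer cells of a type and less RNA per cell cannot be told apart.

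**Figure D1:**
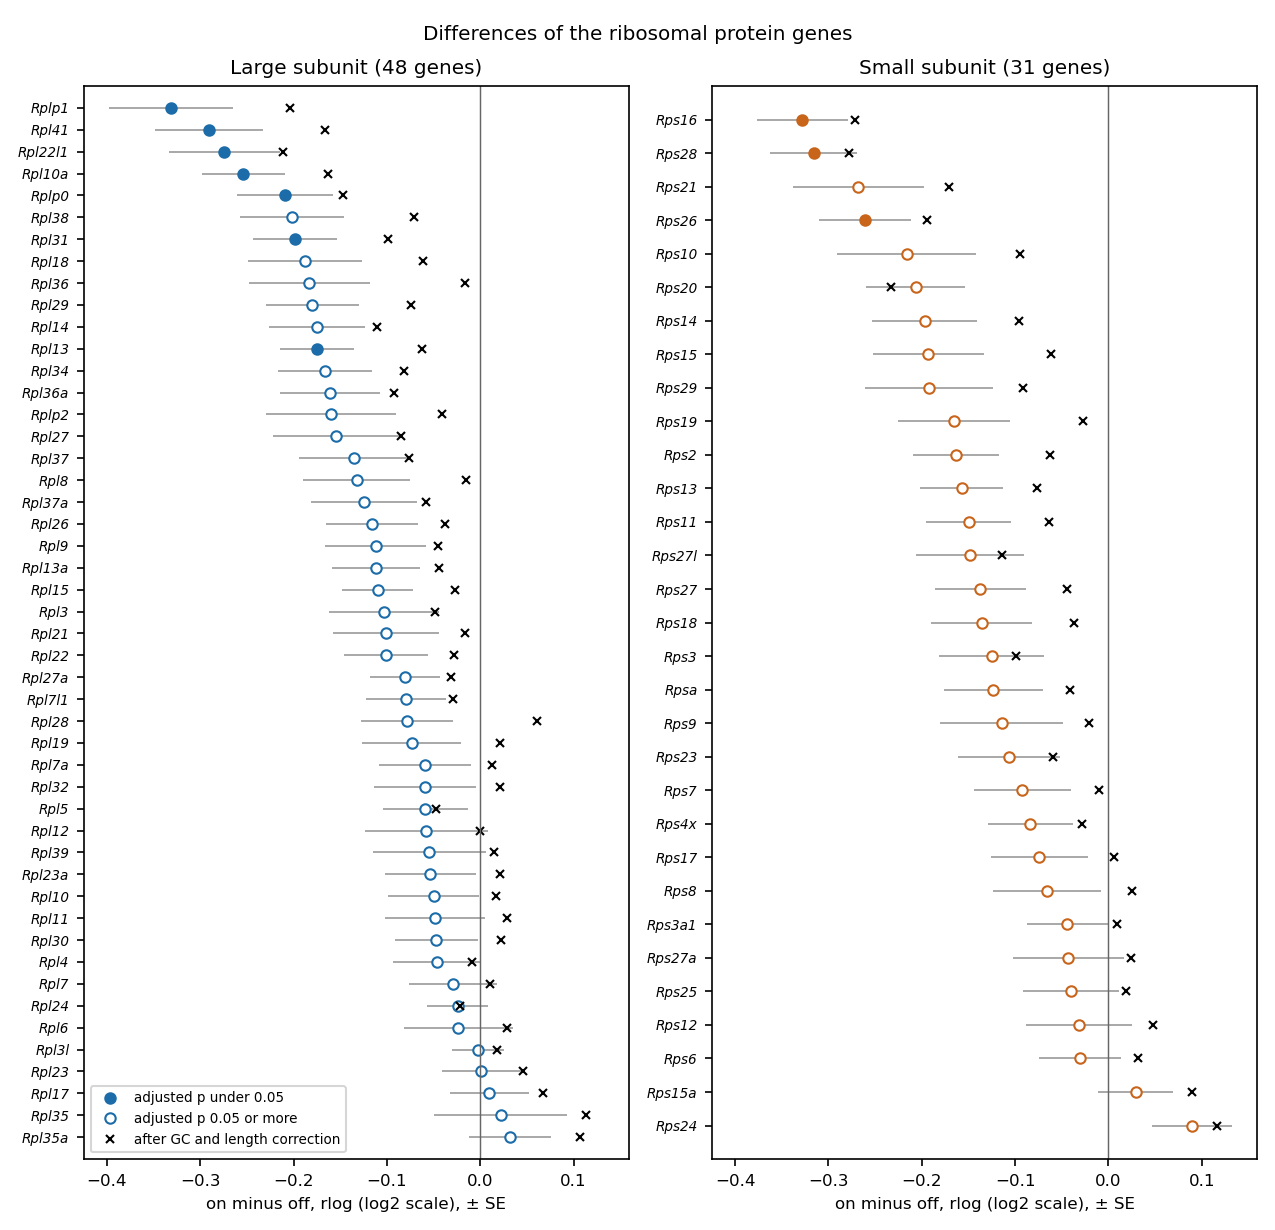
Difference, on minus off, of tested ribosomal protein genes on the rlog (log2) scale with its SE, for 48 large subunit genes at the left and 31 small subunit genes at the right; filled points have an adjusted p under 0.05 in limma, and crosses give the difference once each library was freed of its trend with transcript length and GC content. The 10 filled points all lie left of 0, and the crosses lie nearer to 0 for all 10.

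Among the large subunit proteins, the most negative difference was that of a stalk protein. Rplp1, with Rplp2, forms the flexible arms of the stalk that bring elongation factors to the ribosome (chr9:61913284-61914542, minus strand, GRCm38). It had 13.08, 12.76, 12.80 and 12.86 in on and 13.09, 13.28 and 13.25 in off. On replicates 2 to 4 lay well below the off libraries, and on replicate 1 lay just under the lowest off library. Rplp1 fell by 0.33 ± 0.07 (SE, limma adjusted p = 0.0239). Rplp0, the stalk's base, had 12.23, 11.98, 12.06 and 12.08 in on and 12.23, 12.35 and 12.31 in off, with no overlap but on replicate 1 close to off replicate 1. It differed by -0.21 ± 0.05 (SE, adjusted p = 0.0484). Rplp2 had 11.54, 11.14, 11.36 and 11.38 in on and 11.44, 11.58 and 11.52 in off, where on replicate 1 lay above off replicate 1 and the groups overlapped, and did not pass at -0.16 ± 0.07 (SE, adjusted p = 0.212). Rpl12, which sits at the foot of the stalk, did not pass at -0.06 ± 0.07 (SE, adjusted p = 0.662). Thus 2 of the 4 stalk genes were called lower, with a median difference of -0.184 over the 4, and 3 without on replicate 1. Of all large subunit genes 8 of 49 were called lower, and 25 of 49 without on replicate 1. Whether the stalk genes differed from the other large subunit genes was not tested.

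Rpl10a, the protein of the other, mobile stalk beside the exit of spent transfer RNA, had the smallest p of the large subunit (chr17:28328471-28331033, plus strand, GRCm38). Its values were 10.44, 10.35, 10.36 and 10.32 in on and 10.55, 10.65 and 10.67 in off. Every on library lay below every off library. The difference was -0.25 ± 0.04 (SE, adjusted p = 0.0129).

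Rpl41, a very short basic peptide, had 11.91, 11.69, 11.66 and 11.66 in on and 11.94, 12.07 and 12.05 in off. On replicates 2 to 4 lay within a narrow band, while on replicate 1 lay just under the lowest off library, and the groups did not overlap. The difference was -0.29 ± 0.06 (SE, adjusted p = 0.0226).

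Rpl22l1, a paralogue of Rpl22, had 10.46, 10.43, 10.30 and 10.25 in on and 10.75, 10.57 and 10.58 in off. No on library reached the off libraries, of which off replicate 1 was the highest. The difference was -0.27 ± 0.06 (SE, adjusted p = 0.0304). Rpl31, a protein at the rim of the exit tunnel, had 11.67, 11.62, 11.61 and 11.53 in on and 11.86, 11.84 and 11.72 in off, with off replicate 3 lowest of its group and close to on replicate 1. It differed by -0.20 ± 0.05 (SE, adjusted p = 0.0369). Rpl13 had 11.77, 11.72, 11.66 and 11.66 in on and 11.84, 11.91 and 11.88 in off, without overlap, and differed by -0.18 ± 0.04 (SE, adjusted p = 0.0369).

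Other functional groups of the large subunit held few calls or none. Of all large subunit genes 8 of 49 were called lower, and 25 of 49 without on replicate 1. Groups of these sizes would hold few calls at the first share, so their counts are no result about the groups. Of 9 genes at the exit tunnel (Rpl4, Rpl17, Rpl19, Rpl22, Rpl23a, Rpl26, Rpl31, Rpl35 and Rpl39) only Rpl31 was called (3 were without on replicate 1), and the median difference was -0.055. Rpl5 and Rpl11, which carry the smallest ribosomal RNA into the large subunit and can bind Mdm2, did not pass, at -0.06 ± 0.05 (SE, adjusted p = 0.492) and -0.05 ± 0.05 (SE, adjusted p = 0.647), nor did they without on replicate 1. Rpl3, Rpl8 and Rpl10, whose parts reach towards the peptidyl transferase centre, did not pass, with differences of -0.10, -0.13 and -0.05, and 2 of the 3 were called lower without on replicate 1. The largest difference of the large subunit that was not called was that of Rpl38, at -0.20 ± 0.06 (SE, adjusted p = 0.0674), with 10.90, 10.61, 10.74 and 10.74 in on and 10.93, 10.98 and 10.94 in off and no overlap.

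Among the small subunit proteins 4 of 32 were called lower. Of 10 genes listed for the messenger RNA channel and the decoding site (among them Rps2, Rps3, Rps14, Rps15, Rps16, Rps18, Rps23, Rps26 and Rps28) these 4 were called lower and all 10 had negative differences, with a median of -0.195. Without on replicate 1 all 10 were called lower, and so were 12 small subunit genes outside the list, Rps10 and Rps21 among them. Whether genes on the list differed from the other small subunit genes was not tested. The list was drawn up with earlier results on Rps16 and Rps28 known, so its count is no independent support.

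Rps16, whose tail reaches the transfer RNA at the decoding site, had the most negative difference of the small subunit (chr7:28350652-28353155, plus strand, GRCm38; the sequence at its start is shown above). Its values were 10.62, 10.53, 10.51 and 10.41 in on and 10.80, 10.83 and 10.90 in off. All 4 on libraries lay below all 3 off libraries, with a gap between the groups wider than that between the off libraries. Rps16 fell by 0.33 ± 0.05 (SE, limma adjusted p = 0.00511). Rps28, a small protein at the exit of the messenger RNA channel, had 9.60, 9.49, 9.59 and 9.49 in on and 9.83, 9.84 and 9.90 in off (chr17:33819027-33824562, minus strand, GRCm38). The groups were again apart, and on replicate 1 lay level with on replicate 3. Rps28 fell by 0.32 ± 0.05 (SE, limma adjusted p = 0.00499). Rps16 and Rps28 were the members whose calls held with any single library left out, with adjusted p of at most 0.0475 and 0.0421 in the 7 fits of limma.

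Rps26, which contacts messenger RNA just upstream of the decoding site, had 11.01, 10.92, 10.79 and 10.87 in on and 11.13, 11.21 and 11.14 in off. Its groups did not overlap, and the difference was -0.26 ± 0.05 (SE, adjusted p = 0.0182).

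**Figure D2:**
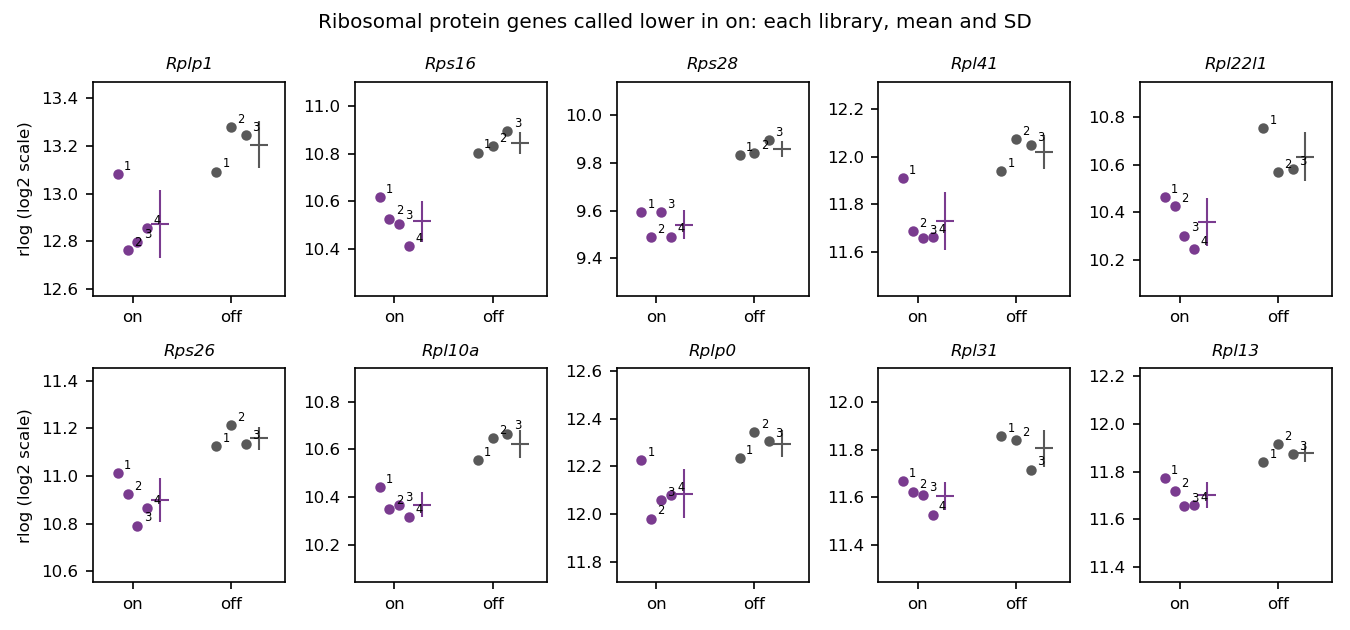
Rlog values (log2 scale) of 10 ribosomal protein genes called lower in on, with on libraries in purple at the left and off libraries in grey at the right, numbered by replicate; crosses and bars give the mean and SD, and every panel spans the same height but starts at its own level. On replicate 1 is the highest on library in all 10 panels and lies below the lowest off library in each.

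Rps21 and Rps20 lay just outside the threshold. Rps21 had 11.83, 11.41, 11.64 and 11.61 in on and 11.85, 11.92 and 11.89 in off, with no overlap and on replicate 2 far below the rest, and its difference was -0.27 ± 0.07 (SE, adjusted p = 0.0579). Rps20 had 11.65, 11.48, 11.52 and 11.38 in on and 11.76, 11.71 and 11.67 in off, without overlap, at -0.21 ± 0.05 (SE, adjusted p = 0.0547). Rps10, at -0.22 ± 0.07 (SE, adjusted p = 0.126), overlapped between groups, with 10.87, 10.45, 10.57 and 10.58 in on and 10.75, 10.90 and 10.85 in off. Rps6, the target of the S6 kinases, was close to 0 at -0.03 ± 0.04 (SE, adjusted p = 0.735), with 11.92, 11.85, 11.82 and 11.75 in on and 11.90, 11.86 and 11.83 in off.

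The members with positive differences were few, and none passed. They were Rps24 at 0.09 ± 0.04 (SE, adjusted p = 0.252), Rpl35a at 0.03 ± 0.04 (SE, adjusted p = 0.72), Rps15a at 0.03 ± 0.04 (SE, adjusted p = 0.72), Rpl35 at 0.02 ± 0.07 (SE, adjusted p = 0.896), Rpl17 at 0.01 ± 0.04 (SE, adjusted p = 0.925) and Rpl23 at 0.00 ± 0.04 (SE, adjusted p = 0.991). Rps24 had 13.09, 13.00, 13.00 and 12.99 in on and 12.95, 13.00 and 12.85 in off, with on replicate 1 highest and off replicate 3 lowest, and the groups overlapped. Rpl35 had 10.37, 10.04, 10.09 and 10.23 in on and 10.08, 10.28 and 10.12 in off, a spread within each group far wider than the difference. In humans, Rps24 belongs to the genes mutated in Diamond-Blackfan anaemia, an inherited failure of red cell production. Of 13 such genes listed, 2 (Rps26 and Rps28) were called lower, 11 did not pass, and the median difference was -0.110. With on replicate 1 left out, 8 of the 13 were called lower. Of all tested members 12 of 81 were called lower, and 47 of 81 with on replicate 1 left out, so both counts lie near the members' own shares.

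The members moved together from library to library, and on replicate 1 did not move with its group. The mean deviation of the 81 tested members from their own means was 0.071, -0.135, -0.053 and -0.093 in on replicates 1 to 4, and 0.069, 0.097 and 0.044 in off replicates 1 to 3. On replicate 1 thus lay within the range of the off libraries, and the other on libraries lay below them. In both subunits on replicates 2 to 4 lay below 0 and the other libraries above it, with 0.068, -0.132, -0.049 and -0.082 in on and 0.061, 0.094 and 0.040 in off for the large subunit, and 0.077, -0.141, -0.059 and -0.110 in on and 0.082, 0.101 and 0.051 in off for the small subunit. On replicate 1 lay above the other 3 on libraries in 78 of 81 members, and at or above the lowest off library in 56. Setting aside on replicate 1, picked for lying near off, on replicates 2 to 4 all lay below every off library in 57 members. On replicate 2 was the lowest of all 7 libraries in 51. The shares of all tested genes for these positions were not computed, so the counts only describe the members.

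**Figure D3:**
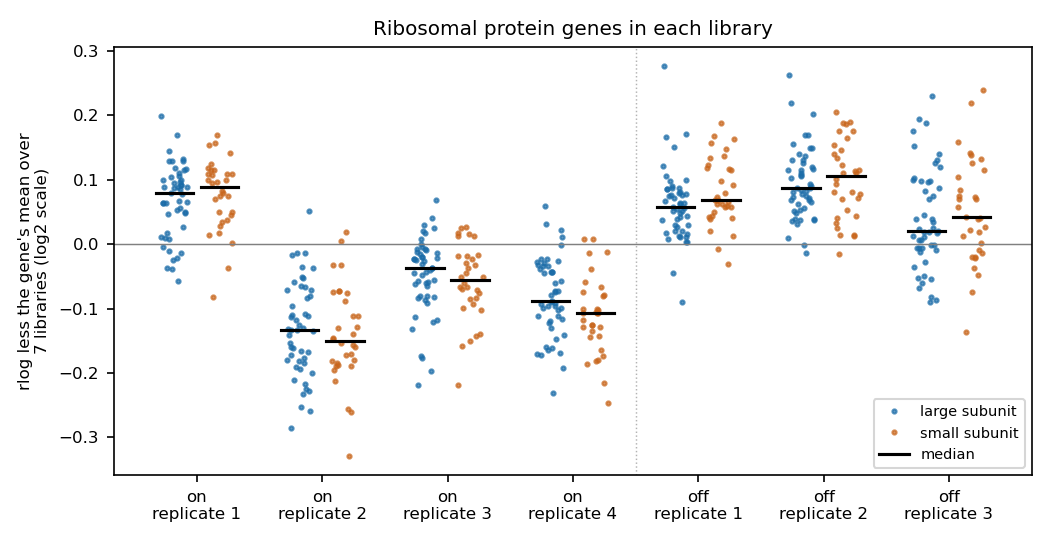
Rlog value (log2 scale) of each tested ribosomal protein gene less its own mean over the 7 libraries, by library, with on libraries left of the dotted line, large subunit genes in blue, small subunit genes in orange and medians as black bars. On replicate 1 has a median near those of the off libraries, while on replicates 2 to 4 have medians below 0.

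Without on replicate 1, 47 members were called lower and none higher in limma, against 8.02% and 8.28% of all tested genes, and all 12 genes called with every library were among them. A rise was built into leaving out the on library nearest to off, so it is no independent support. In the same fit 7 of 8 nuclear RNAs listed as signs of RNA quality were called higher. The medians were then -0.129 for the large and -0.179 for the small subunit. Rps21 was then at -0.34 ± 0.05 (SE, adjusted p = 0.000634), Rps10 at -0.30 ± 0.05 (SE, adjusted p = 0.000858) and Rpl14 at -0.23 ± 0.04 (SE, adjusted p = 0.000851). With array weights, which let limma give libraries unequal weight, 36 members were lower and none higher, against 6.34% and 6.04% of all tested genes. Leaving out any other library lowered the count. With on replicate 2 left out 6 members were lower (0.76% of all tested genes), with on replicate 3 out 2 (0.274%) and with on replicate 4 out 2 (0.358%). Of the off libraries, leaving out replicate 1 gave 8 (1.37%), replicate 2 gave 2 (0.207%) and replicate 3 gave 3 (0.285%). Where the count was 2, the members called were Rps16 and Rps28, joined by Rpl31 without off replicate 3. Without on replicate 2, Rpl10a, Rpl22l1 and Rps26 were among the other members called, and without off replicate 1, Rpl10a, Rpl41, Rplp1 and Rps26 were among them. The 10 other called genes passed in 1 to 3 of the 7 fits, with highest adjusted p between 0.0928 in Rpl10a and 0.227 in Rplp0.

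Ribosomal protein transcripts are short, with a median annotated length of 729 bases over the 81 tested members against 2619 over all tested genes, and transcript length went along with the libraries. Across all tested genes, Spearman's rho of a gene's deviation with transcript length was -0.0359 for on replicate 1. It was 0.239 to 0.260 for on replicates 2 to 4, and -0.312 to -0.204 for the off libraries. Genes are not independent replicates, so these are descriptions. After removal of each library's smooth trend with GC content and length, 3 members were called lower and none higher, against 0.303% and 0.157% of tested genes. All 3 were of the small subunit, with Rps28 at -0.28 ± 0.04 (SE, adjusted p = 0.0124) and Rps16 at -0.27 ± 0.04 (SE, adjusted p = 0.0211) among them. The difference of each of the 12 called genes was nearer to 0 after the correction. Rpl10a was then at -0.16 ± 0.04 (SE, adjusted p = 0.0611), Rps26 at -0.19 ± 0.04 (SE, adjusted p = 0.0607), Rplp1 at -0.20 ± 0.05 (SE, adjusted p = 0.0649) and Rpl13 at -0.06 ± 0.03 (SE, adjusted p = 0.346). The median difference was -0.029 over the large subunit and -0.052 over the small subunit, against -0.004 over all tested genes. Of the 81 members 56 were negative, against 52.1% of tested genes. A trend with length and a change that falls on short messages cannot be told apart here.

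**Figure D4:**
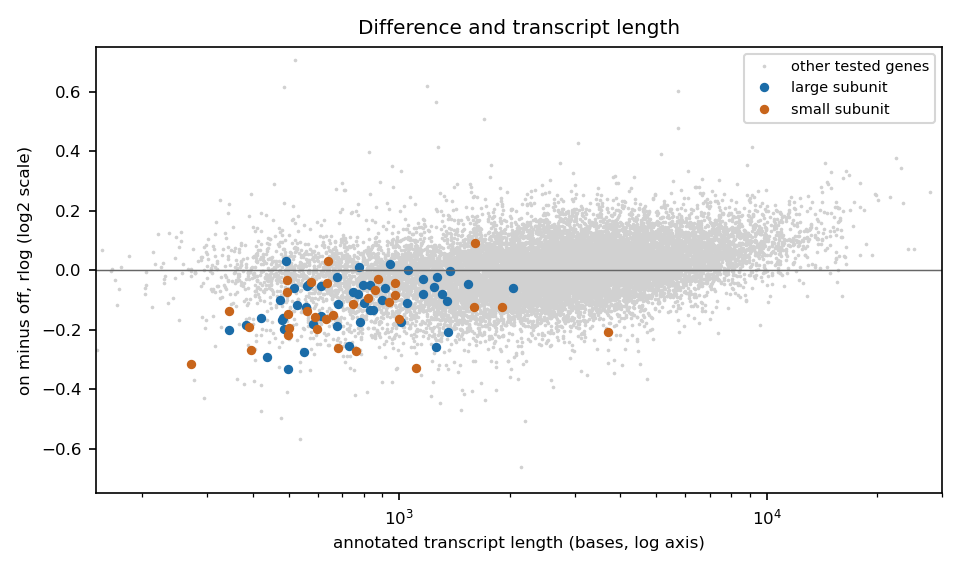
Difference, on minus off, on the rlog (log2) scale against annotated transcript length in bases (log axis) for all tested genes in grey and ribosomal protein genes in blue (large subunit) and orange (small subunit). The ribosomal protein genes lie at the short end, mostly below 0, and the grey points of like length lie on both sides of 0.

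Within the members, the difference varied with the same properties. Over the 81 tested members, which share libraries, Spearman's rho of the difference was 0.33 with transcript length and -0.42 with GC content, and after the correction 0.18 and -0.15. In the members called lower the annotated length had a median of 705 bases and the share of G and C a median of 53.9%. In those not called the medians were 751 bases and 50.7%. Processed copies of ribosomal protein genes are scattered through mammalian genomes and can share reads with their parents. At least 1 annotated pseudogene matched the coding sequence at 95% identity or more over 80% or more of its length in 76 of 83 members. Rpl21 had the most, 56, followed by Rpl7a with 32, Rpl29 with 24, Rps2 with 23 and Rpl17 with 22. In total 554 copies were found, of which 38 had a mean rlog of 3 or more. Among the called genes Rps16 had 3 and Rps28 had 7, so their values are uncertain to that extent. The called members had a median of 3 copies and the others 6, and rho of the difference with the number of copies was 0.35 before and 0.40 after the correction. The part of shared reads in these values was not tested.

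Paralogue pairs were compared as the rlog of the second form less that of its parent in each library. Rpl22l1 less Rpl22 was -1.27, -1.17, -1.35 and -1.33 in on and -0.98, -1.23 and -1.11 in off. The groups overlapped, and the difference of -0.17 had an exact two-sided permutation p of 0.114 (0.343 adjusted over the 3 pairs). Rpl7l1 less Rpl7 averaged -2.18 ± 0.06 in on (SD, n = 4) and -2.13 ± 0.02 in off (SD, n = 3), with an exact permutation p of 0.229 (0.343 adjusted). Rps27l less Rps27 averaged -3.54 ± 0.02 in on (SD, n = 4) and -3.53 ± 0.02 in off (SD, n = 3), with an exact permutation p of 0.571. With 4 against 3 libraries the smallest p of such a two-sided test is 0.0571, so none of the 3 could pass 0.05.

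Proteins of the ribosome whose symbols do not follow the pattern leaned the same way. Fau, which encodes a ubiquitin-like protein fused to a small subunit protein, had 11.16, 10.88, 10.90 and 10.94 in on and 11.20, 11.34 and 11.34 in off. The groups did not overlap, though on replicate 1 lay near off replicate 1, and Fau fell by 0.32 ± 0.06 (SE, limma adjusted p = 0.0184). It passed in 3 of the 7 fits with 1 library left out and missed the threshold once corrected for length and GC content, at -0.20 ± 0.04 (SE, adjusted p = 0.0606). Rack1, a scaffold on the head of the small subunit, was at -0.18 ± 0.05 (SE, adjusted p = 0.0804) and Rpl36al at -0.11 ± 0.06 (SE, adjusted p = 0.32). Thus 1 of 4 passed, and 3 of 4 did without on replicate 1.

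Other genes of translation showed few calls. Over all tested genes 1.79% were called lower and 0.816% higher, so lists of these sizes would hold few calls at those shares. At an unadjusted p under 0.05 in limma the shares were 10.6% lower and 10.0% higher, and without on replicate 1 the called shares were 8.02% and 8.28%. Of 13 elongation and termination factors none was called by limma (at an unadjusted p under 0.05, 2 were lower and none higher), and the median difference was 0.009. Without on replicate 1, 2 of them (Eif5a and Eef1b2) were called lower. Eif5a, which helps ribosomes past stalling sequences, had 12.89, 12.72, 12.72 and 12.71 in on and 12.93, 12.97 and 12.91 in off, without overlap, and missed the threshold at -0.18 ± 0.05 (SE, adjusted p = 0.0559). Eef1b2, an exchange factor for elongation, was at -0.11 ± 0.04 (SE, adjusted p = 0.187). Of 37 initiation factors 1 was lower and 1 higher (6 lower and 3 higher at an unadjusted p under 0.05), with a median of -0.037. Without on replicate 1, 6 were called lower and 2 higher. The 2 called with every library were subunits of eIF3, the largest initiation factor. Eif3f had 11.75, 11.65, 11.69 and 11.63 in on and 11.87, 11.84 and 11.83 in off and fell by 0.17 ± 0.04 (SE, limma adjusted p = 0.0359), and Eif3j1 had 9.86, 9.90, 9.94 and 9.90 in on and 9.75, 9.75 and 9.68 in off and rose by 0.18 ± 0.04 (SE, limma adjusted p = 0.0471). The groups overlapped in neither gene, each call held in 1 of the 7 fits with 1 library left out, and neither passed after the correction.

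None of the 49 ribosome biogenesis factors tested was called by limma (6 lower and 6 higher at an unadjusted p under 0.05), and their median was 0.034. Once on replicate 1 was left out, 3 were called lower and 5 higher. Bms1, a GTPase of small subunit assembly, was at 0.17 ± 0.05 (SE, adjusted p = 0.0701), and Nop10, a protein of the pseudouridylation particles, at -0.16 ± 0.04 (SE, adjusted p = 0.0704). Of 19 genes of mTOR signalling, control of terminal oligopyrimidine messages and the ribosomal S6 kinases none was called (1 lower and 4 higher at an unadjusted p under 0.05), with a median of 0.034, while 4 were called higher without on replicate 1. Tsc1, an inhibitor of mTOR signalling, was at 0.11 ± 0.04 (SE, adjusted p = 0.118) and the kinase gene Rps6ka1 at 0.11 ± 0.05 (SE, adjusted p = 0.203). Of 12 tested genes for factors that bind the new chain at the ribosome none was called (2 lower and none higher at an unadjusted p under 0.05), with a median of 0.005, and Srp14 and Srp9, of the signal recognition particle, were at -0.11 ± 0.04 (SE, adjusted p = 0.166) and -0.11 ± 0.04 (SE, adjusted p = 0.196). Srp14 was called lower without on replicate 1. Transcripts on these lists are longer than those of the members, with median lengths of 1581 to 4586 bases.

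**Figure D5:**
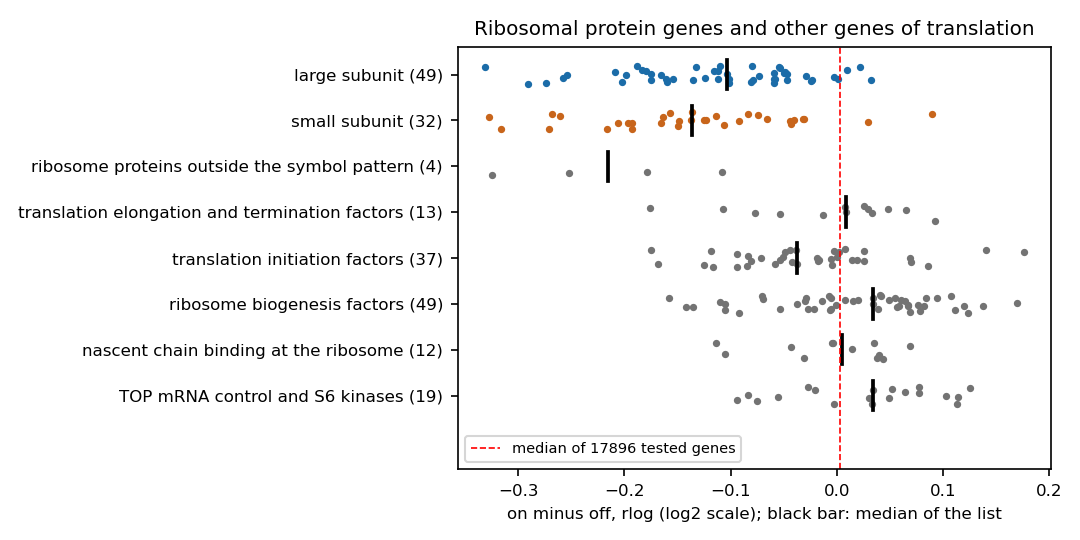
Difference, on minus off, on the rlog (log2) scale of each tested gene in the large and small subunit lists and 6 lists of other ribosome and translation genes, with the median of each list as a black bar, the number of genes in brackets and the median of all 17896 tested genes as a dashed line. Both subunits and the 4 ribosome proteins outside the symbol pattern lie mostly left of the dashed line, and the other lists lie around it.

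Markers of cell types and of RNA quality were read beside these values. No marker of neurons (6), astrocytes (5), oligodendrocytes (4), microglia (5), endothelium (3), ependyma and choroid plexus (4) or blood (5) was called by limma, and none was listed at 0. Of the 6 neuron markers 5 had negative differences and 3 were lower at an unadjusted p under 0.05, and their median of -0.096 was close in size to that of the members. Without on replicate 1 it was not, at -0.097 for the neuron markers and -0.166 for the members. Corrected for length and GC content, with all libraries, the median was -0.051 for the neuron markers and -0.038 for the members. All 6 neuron markers and 56 of 81 members were then negative. With every library and no correction, the medians were -0.012 for astrocytes, -0.051 for oligodendrocytes, -0.053 for microglia, -0.030 for ependyma and choroid plexus and -0.084 for blood. At an unadjusted p under 0.05, Tmem119 of microglia and Cldn5 of endothelium were lower, and none of these markers was higher. The summed level of the neuron markers was 17.59 to 17.65 in on and 17.61 to 17.75 in off on the log2 scale, and that of the oligodendrocyte markers 17.91 to 18.15 in on and 17.98 to 18.12 in off. Of these lists the largest gap in median was that of endothelium, at 0.14, with on replicate 1 and off replicate 2 low. Without on replicate 1, Tubb3 of neurons was called lower at -0.18 ± 0.04 (SE, adjusted p = 0.00837), Mog of oligodendrocytes at -0.14 ± 0.04 (SE, adjusted p = 0.0299) and Tmem119 at -0.21 ± 0.06 (SE, adjusted p = 0.0239), while Flt1 of endothelium was called higher at 0.38 ± 0.07 (SE, adjusted p = 0.00234) and Pecam1 at 0.24 ± 0.07 (SE, adjusted p = 0.0381). Of 8 nuclear RNAs listed as signs of RNA quality 2 (Malat1 and Snhg14) were higher in on, all 8 had positive differences, and the median was 0.24. Leaving out on replicate 1, 7 of the 8 (all but Neat1) were called higher, with a median of 0.300. Their mean deviation was -0.13, 0.18, 0.22 and 0.16 in on replicates 1 to 4 and -0.06, -0.28 and -0.09 in off replicates 1 to 3, so on replicate 1 again lay with the off libraries. Their summed level was 18.10 to 18.51 in on and 17.98 to 18.20 in off. Corrected for length and GC content, with all libraries, 2 of the 8 were called higher. The corrected median over the 8 was 0.272, against -0.038 over the members. The part of cell makeup and of nuclear RNA in the ribosomal protein values was not tested.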

How the data were processed

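RNA of mouse brain was sequenced in 4 on and 3 off libraries. Per the labels' protocols, RNA came from a Qiagen miRNeasy kit with DNase digestion, and library preparation used a TruSeq Stranded mRNA kit (Illumina), which keeps poly(A) RNA. Per the submitters' processing notes, the build was GRCm38 and the tools, with no role given, were DESeq2 1.16.1, Subread 1.5.3, STAR 2.5.2, BWA 0.7.14-r1136 and cutadapt 1.9.1. The authors deposited rlog values (log2 scale), 1 column per library, for 48526 genes, of which 13834 were at 0 in every library. The sources used here give no annotation release, strand setting or depth, so the depth is unknown and no counting interval is printed.

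Genes with a mean of 3 or more entered a limma fit (version 3.58.1, R 4.3.3) of the group, with the intensity trend. Tests were two-sided, with Benjamini-Hochberg adjustment over 17896 genes and a threshold of 0.05. Each SE of a difference is limma's moderated one. GENCODE M21 (GRCm38) gave positions, lengths (shortest principal transcript) and GC content, and BLAST 2.17.0 the pseudogene copies. The correction removed a smooth trend with GC content and length from each library (mgcv 1.9.3, 3 classes of mean, 17831 genes). The exact permutation tests used scipy 1.17.1.

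Members, lists, tests and alternatives were chosen with earlier results of these data known. Named were called members, the 5 most negative and 5 most positive of each subunit, the 5 highest and lowest levels per length, paralogues, members too low to test, ribosome proteins outside the symbol pattern, and of each list the called genes and the 2 smallest p. Rpl10, Rpl14, Rpl38, Rps10 and single marker genes were named outside this rule, after their values were seen, as were the genes of the functional groups. Rpl21, Rpl7a, Rpl29 and Rps2 were named outside it for their number of copies. In simulated data for on minus off over 17896 genes, 38% of 50 genes changed by 0.2 were recovered, 86% of those changed by 0.4 and 100% of those changed by 0.8 or 1.6, with 7 false calls among 169. When a length trend was simulated, the fit called 4073 unchanged genes, and 6 once corrected. That trend was linear in log2 length and the same in all on libraries, and the simulated noise was independent between genes. In the data the trend differed between on libraries and genes varied together. The simulation thus checks how the fit and the correction run, not how well they do on these data. No 2 libraries held identical values. One gene of the biogenesis list, Riok2, was not used here. Some genes that this rule names are not reported here, though they stay in every fit and count.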

Additional observations from a re-analysis of the deposited data

Results flagged for a closer look

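Within the 4 on libraries, 62 values (47 named genes and 15 lists) were checked for a library that stood far from the other 3, by the gap to the nearest library over the whole range. The gap passed in 5, where 1 in 20, or 3.1 of 62, is the share chance gives for independent values, which these are not. In 4 of the 5 the library was on replicate 1. Rpl41 was 11.91 in on replicate 1, against 11.66 to 11.69 in on replicates 2 to 4 and 11.94 to 12.07 in off. Rps24 was 13.09 there, against 12.99 to 13.00 in the other on libraries. Eif5a was 12.89, against 12.71 to 12.72. Tsc1 was lower there, at 11.89, against 11.98 in each of the others. The mean deviation of the 12 genes for factors that bind the new chain was -0.02707 in on replicate 3, against 0.00411 to 0.00841 in the other on libraries.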

How the results depend on the processing

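The count of ribosomal protein genes called lower, 12 (8 large, 4 small), was 12 with a mean of 5 or more, 11 with median centring, 12 with quantile normalization and 13 with a robust prior. Array weights gave 36 (18 and 18), a threshold of 0.1 gave 23 (12 and 11), a fit with no trend in intensity 5 (1 and 4), and testing every row without a filter 0 (0 and 0; 26 lower and 0 higher at an unadjusted p under 0.05 in limma). Corrected for length and GC content it was 3 (0 and 3), and 19 (10 and 9) if on replicate 1 was also left out. A rise was built into leaving out the on library nearest to off, so the 19 are no independent support. With 1 library left out the count of genes called lower ran from 2 to 47 (0 to 25 and 2 to 22). The count of genes called higher was 0 except in the corrected values without on replicate 1, where it was 2. For that fit the shares of all tested genes were not computed, nor were they for the unadjusted counts without a filter and with the replicate block. With the replicate number as a block the count was 0 lower (0 and 0; 28 lower and 0 higher at an unadjusted p under 0.05 in limma), with medians of -0.089 and -0.111 for the large and small subunits. On replicate 4 has no off library of its number, so it added nothing to that comparison, and these medians equal those without it. The deviations of same-numbered on and off libraries, each from its group mean, correlated at -0.23, -0.10 and 0.02 over all tested genes. Such correlations over genes that vary together cannot settle whether the numbers pair the libraries. The median differences, -0.103 and -0.137, were -0.129 to -0.079 and -0.179 to -0.111 with 1 library left out, and -0.029 and -0.052 after the correction. The cause of these shifts was not tested.

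The sign of 9 named genes, none of them called, turned under some alternatives. With 1 library left out, Rpl17 ran from -0.022 to 0.030, Rpl23 from -0.028 to 0.025, Rpl35 from -0.041 to 0.081, Rpl35a from -0.0038 to 0.060, Rpl3l from -0.010 to 0.0021, Rpl7 from -0.071 to 0.0029 and Rps12 from -0.072 to 0.029. With array weights Rpl17 was -0.013, Rpl23 -0.013, Rpl35 -0.017 and Rpl3l 0.0035. Rpl3l was also 0.0040 with median centring, 0.018 after the correction and 0.026 after it without on replicate 1. Rpl7 was 0.011 after the correction. Rps12 was 0.048 after it and 0.029 after it without on replicate 1. After the correction Rps25 was 0.019 and Rps6 0.032, and Rps6 was 0.021 after it without on replicate 1. With no counts, depth sets an unknown limit, and the shrinkage of rlog values limits what can be said of Rpl24, Rpl3l and Rpl39l.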
